A study of Mus musculus with 12 samples.

Results

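The response of Oct4 C48S mouse embryonic stem cells to retinoic acid (RA) was read from 6 of the 12 RNA sequencing libraries of the series. These were the 3 libraries titled as RA at day 2 and the 3 titled as undifferentiated of one mutant line, and every gene that passed a low-count filter was described. Oct4, the product of Pou5f1, is the POU transcription factor that holds the pluripotent state, and C48S replaces a cysteine of it by a serine. The line is of the Bl/6J strain and consists of 1 clone, number 46. Effects of the mutation and of other properties of this clone cannot be told apart. The labels give no age, sex or passage. The other 6 libraries are of wild type (WT) Bl/6J cells in the same states, 3 of each, and the treatment protocol calls WT the parental cells. Undifferentiated cells of both lines were kept in ascorbic acid with PD (1 µM), which inhibits the kinase MEK, and CHIR (3 µM), which inhibits the kinase GSK3, and RA was given for 2 days at 1.5 mg/L without leukaemia inhibitory factor (LIF). Whether the inhibitors and ascorbic acid were kept during RA is not stated, so the effects of RA, of LIF withdrawal and of a change of medium cannot be told apart. For the treatment day the field of that name gives 5, 6 and 7 for the 3 C48S RA libraries and 2, 3 and 4 for those of WT, against day 2 in every title. Nothing in the labels tells separate cultures from repeat libraries of one culture. The p-values therefore measure only how these libraries vary, and that spread may be technical.

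As background, RA enters the nucleus and binds heterodimers of RAR and RXR receptors, which sit on response elements in DNA and switch from holding corepressors to recruiting coactivators. In embryonic stem cells its earliest targets include enzymes that break RA down, the RA receptor Rarb and the 3′ members of the Hox clusters, while the network of Pou5f1, Sox2 and Nanog is shut off. Pou5f1 itself is repressed during this exit, and its protein also holds lineage genes such as Cdx2 silent in the undifferentiated state.

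The C48S libraries held 12683268, 10084356 and 10515498 counts before RA and 11954255, 9869806 and 11466082 after it. Levels are given as CPM, counts relative to the total, scaled to the effective size of each library, in the order of replicates 1, 2 and 3. The replicate numbers only name libraries. Changes are edgeR log2 fold changes ± SE, and a gene is said to have risen or fallen where its Benjamini-Hochberg adjusted p over all 17940 genes tested was under 0.05.

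C48S undifferentiated replicate 3 stood apart from the other 2 libraries of its group. Its counts differed from theirs by a chi-square over degrees of freedom of 9.94 and 9.7, against at most 2.26 for any other pair of libraries of the same group. Of 11078 genes with at least 5 CPM in that group, 300 (2.71%) lay 1.5-fold or more from the mean of the other 2 libraries in replicate 3, against 57 and 75 genes in replicates 1 and 2. Without this library 13247 of 18539 genes tested were called for the RA change in C48S, against 13203 of 17940 with it. A difference between the RA changes of the lines was called for 7771 genes without it and for 7071 with it. The library is kept here, and some values are also given without it. A value with no second number can still shift without it, as for Cdx1 (2.85 with it and 2.99 without it).

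Pou5f1, the gene that carries the mutation (ENSMUSG00000024406, chromosome 17, 35816915 to 35821669 of GRCm39), stood at 512, 505 and 653 CPM in the C48S undifferentiated libraries and at 71.5, 68.3 and 65.1 CPM after RA. The groups did not overlap, and replicate 3 was the highest library before RA. Pou5f1 fell, with a log2 change of -3.03 ± 0.081 (edgeR adjusted p = 4.94e-17), and of -2.89 without replicate 3. After RA 12.3% of its level remained in C48S, against 3.93% in WT, a difference between the RA changes of 1.65 ± 0.12. Since C48S is a substitution and not a deletion, these levels do not check the genotype. The defining markers of stem cells Nanog, Sox2, Esrrb and Zfp42 were expressed in every undifferentiated library.

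Most of the C48S transcriptome differed between the undifferentiated and the RA libraries. Of 17940 genes tested, 13203 (73.6%) were called, of which 6991 (39% of those tested) rose and 6212 (34.6%) fell. Rises were larger than falls: 2227 genes (12.4%) rose and 368 (2.05%) fell at least 4-fold, and 589 (3.28%) rose and 57 (0.318%) fell at least 16-fold. The median log2 change of all genes was 0.0486. In 13240 genes (73.8%) no C48S RA library overlapped with any C48S undifferentiated library. Since close to 3 in 4 genes were called, a call alone says little about a gene, and each list below is read against these shares and by its size. Scaling by upper quartiles in place of TMM moved changes up by a median of 0.112, which gave 7738 rises and 5341 falls (59.2% rises, against 53% here), so changes near 0 are relative to the TMM scaling. By chromosome, the median change of protein-coding genes lay between -0.18 (chromosome 13) and 0.198 (the X chromosome), apart from the 13 genes of the mitochondrial genome at -0.311.

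Several retinoid genes rose steeply. Cyp26a1, the enzyme that clears RA, was at 0.0849, 0.213 and 0.103 CPM before RA and at 547, 530.0 and 532 CPM after it. It rose by 11.89 ± 0.13 (edgeR adjusted p = 1.87e-38) from a level of a few counts per library. Rarb, the RA receptor gene with the best known response element, went from 1.61, 0.746 and 1.24 to 41.2, 47.4 and 40.3 CPM (5.11 ± 0.17). Both groups of libraries lay far apart for these genes, with no overlap. In the RefSeq promoters (GRCm38.p6, the build of that table and not of the counts), a DR5 element, a direct repeat of the receptor's core site with a spacer of 5 bases, was searched on both strands from 250 bases before to 50 bases after each start. It was found for 8 of 12086 tested genes with a promoter (0.0662%) and for 4 of 1434 that rose at least 4-fold (0.279%). Of these 4, 3 were among the 324 that rose at least 16-fold (0.926%), Ppbp, Rarb and Cyp26a1. It was also found for 1 of 229 that fell at least 4-fold (0.437%), Cfap45, and for 1 of 2679 that were not called (0.0373%). With 8 genes in all, no difference between these shares is claimed. The promoters of Cyp26a1 and Rarb are printed because both genes are textbook direct targets of RA and lie among the rises here. Each runs 5′ to 3′ along the gene over the 250 bases before the start, with the DR5 match in capitals (for Cyp26a1, chr19:37697558-37697807 on the plus strand, it lies on the opposite strand at -32 to -16, and for Rarb, chr14:16575477-16575726 on the minus strand, on the gene's strand at -53 to -37).
Cyp26a1: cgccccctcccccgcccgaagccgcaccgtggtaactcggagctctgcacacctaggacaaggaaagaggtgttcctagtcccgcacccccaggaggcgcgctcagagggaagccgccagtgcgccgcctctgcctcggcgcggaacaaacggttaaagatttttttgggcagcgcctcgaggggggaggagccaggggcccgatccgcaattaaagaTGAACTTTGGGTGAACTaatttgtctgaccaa
Rarb: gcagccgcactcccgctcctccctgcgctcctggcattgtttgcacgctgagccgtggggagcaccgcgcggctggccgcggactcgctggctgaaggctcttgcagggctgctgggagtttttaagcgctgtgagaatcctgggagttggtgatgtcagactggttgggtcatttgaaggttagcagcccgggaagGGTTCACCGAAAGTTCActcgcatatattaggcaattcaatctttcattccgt

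The rest of the retinoid list followed its roles unevenly. Of 21 tested members 12 rose and 5 fell, and with upper quartile scaling 12 rose and 1 fell. Among the genes of uptake and synthesis, Stra6, the membrane receptor of retinol carrier protein, rose from 0.849, 0.320 and 0.827 to 132, 135 and 127 CPM (7.57 ± 0.13). Dhrs3, which turns retinal back into retinol, rose from 4.41, 6.18 and 6.51 to 112, 112 and 114 CPM (4.33 ± 0.096). Of the 7 tested genes of uptake and synthesis 3 rose and 1 fell, and Rdh10, Aldh1a1 and Aldh1a3, enzymes of RA synthesis, did not pass the test. Of the 5 genes of binding and breakdown 3 rose: Cyp26a1, Cyp26b1 (3.54 ± 0.066) and Crabp2, which carries RA to its receptor, from 1.95, 2.02 and 1.86 to 103, 99.9 and 96.6 CPM (5.67 ± 0.12). Fabp5, another RA carrier, was at 27.2, 27.2 and 26.1 CPM before and 26.3, 20.7 and 22.0 CPM after RA, groups that overlapped (-0.22 ± 0.098, edgeR adjusted p = 0.0451). That call ended with upper quartile scaling (-0.11, adjusted p = 0.335) and without single libraries of either group, such as C48S RA replicate 2 (-0.14). In WT it fell (-1.84 ± 0.14), and the changes differed by 1.62 ± 0.17. Of 9 receptors and corepressors 6 rose and 3 fell. Rxrg had no count in C48S before RA and was at 0.692, 0.748 and 0.792 CPM after it, at least 7.64-fold higher. Nrip1, a corepressor that RA itself induces, rose by 2.08 ± 0.063 and Rara by 0.61 ± 0.056, and Rarg fell slightly (-0.18 ± 0.049), a call that ended with upper quartile scaling (adjusted p = 0.189). Its change exceeded that in WT (-1.72 ± 0.053) by 1.54 ± 0.072. For Cyp26a1, Rarb, Stra6 and Dhrs3 the RA change did not pass the test of a difference between the lines (adjusted p = 0.647, 0.286, 0.123 and 0.0697), with differences of 0.76, -0.60, 0.92 and 0.37 on the log2 scale. Without C48S undifferentiated replicate 3 that of Dhrs3 passed (0.47, adjusted p = 0.023), and without WT undifferentiated replicate 1 that of Cyp26a1 was -0.15.

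Pluripotency genes fell together in C48S, and most of them fell less than in WT. Of the 16 naive pluripotency factors 15 fell and 1 rose, with a median change of -2.97 in C48S and -3.80 in WT. For 12 of the 16 the change was higher in C48S than in WT and for none was it lower, against 22.2% and 17.2% of all genes tested (7071 genes, 39.4%, differed between the lines in all). Nanog (ENSMUSG00000012396, chromosome 6, 122684448 to 122691592 on GRCm39), the homeobox factor of the naive state, was at 857, 861 and 856 CPM before and 94.4, 95.02 and 93.3 CPM after RA. It fell (-3.19 ± 0.048, edgeR adjusted p = 3.85e-34) and kept 10.99% of its level, against 1.56% in WT, a difference between the RA changes of 2.82 ± 0.075. Esrrb, an orphan nuclear receptor that supports Nanog, went from 961, 936 and 900.2 to 122, 118 and 109 CPM (-3.003 ± 0.052). In WT it changed by -5.79 ± 0.068, and 1.81% remained against 12.5% in C48S (difference 2.78 ± 0.086). In these genes no library after RA reached the level of any library before it.

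Other naive factors held the same order. Prdm14, which represses methyltransferase genes, was at 35.2, 34.3 and 36.0 CPM before and 2.38, 1.403 and 1.66 after RA (-4.25 ± 0.14), and its change exceeded that of WT by 3.81 ± 0.35. Nr0b1, a corepressor partner of Pou5f1, fell from 171, 169 and 203 to 10.45, 8.14 and 7.61 CPM (-4.37 ± 0.089, difference 2.50 ± 0.21), and replicate 3 was its highest library before RA. Nr5a2, a nuclear receptor that can activate Pou5f1, changed by -3.15 ± 0.092 (difference 2.14 ± 0.17), and the LIF and Wnt effectors Klf4 and Tfcp2l1 by -2.42 ± 0.054 and -2.94 ± 0.053 (differences 1.18 ± 0.088 and 0.97 ± 0.072). Klf2, Fbxo15, Dppa5a and Tcl1 fell, with log2 changes of -3.56, -3.52, -1.71 and -6.67, and for these 4 no difference between the lines was called (adjusted p = 0.3801, 0.388, 0.958 and 0.979). Without C48S undifferentiated replicate 3 those of Klf2 (0.20) and Dppa5a (0.16) did, both small. The exception in direction was Gbx2, a homeobox target of LIF, which rose in C48S from 28.9, 27.6 and 31.1 to 44.0, 45.3 and 43.3 CPM (0.60 ± 0.080) and fell in WT (-0.95 ± 0.083, difference 1.55 ± 0.12).

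Of the 15 general pluripotency regulators 12 fell and 3 rose, with a median of -1.33 in C48S and -2.71 in WT. Their change was higher in C48S for 12 and lower for 2. Sox2, the partner of Oct4 on DNA, fell from 355, 343 and 366 to 87.2, 77.8 and 82.3 CPM (-2.10 ± 0.053) and kept 23.2%, against 3.30% in WT (difference 2.82 ± 0.087). Sall4, a zinc finger factor of the same network, fell from 669.9, 648 and 634 to 383, 367 and 359 CPM (-0.82 ± 0.045, difference 1.398 ± 0.063). Tdh, the threonine dehydrogenase that mouse stem cells depend on, went from 840.5, 850.0 and 880.4 to 10.2, 10.7 and 9.59 CPM (-6.4 ± 0.066) and Fgf4, an Oct4 and Sox2 target that drives ERK signalling, from 311, 337 and 341 to 11.4, 11.8 and 14.5 CPM (-4.71 ± 0.071). Dppa2 and Dppa4, a pair that acts together on chromatin, changed little, at 0.36 ± 0.059 and -0.45 ± 0.057. Formative and primed regulators were split: of 8 tested, 3 rose and 4 fell, and for 7 the change was higher in C48S than in WT. Foxd3, a forkhead repressor, and Zic2 fell (-5.88 and -1.93), and Sox3 and Pou3f1 rose by 2.97 ± 0.16 and 0.81 ± 0.18. Otx2 and Fgf5, the usual marks of the formative state, were too low to be tested, with 4 and 9 counts of Otx2 over the 3 libraries before and after RA and 1 and 2 of Fgf5.

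**Figure D1:**
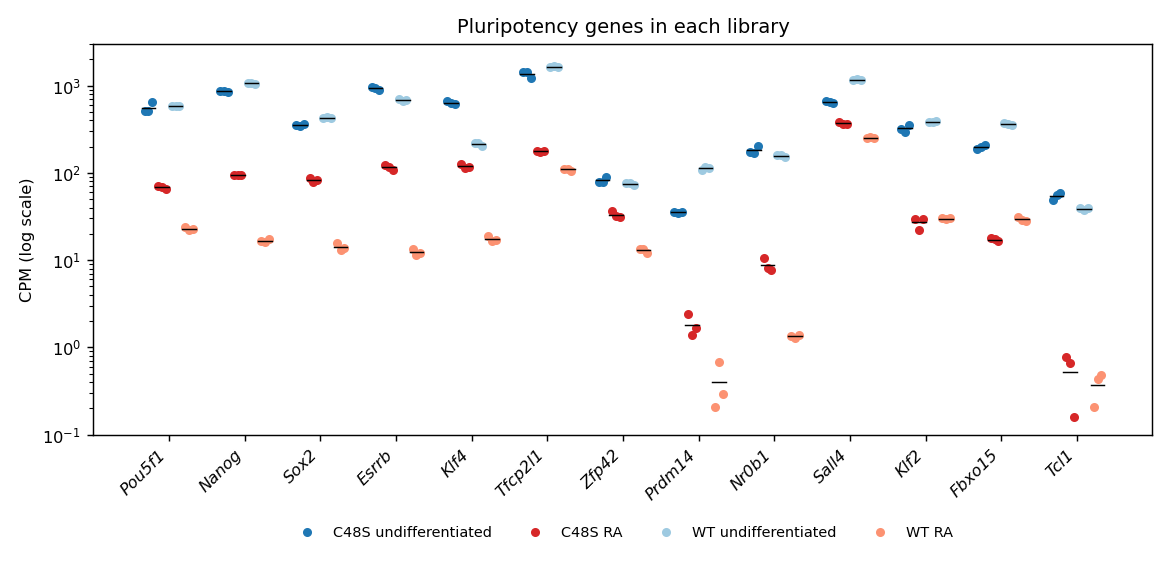
Levels of 13 pluripotency genes in each of the 12 libraries, in CPM on a log axis, with points for single libraries and black bars for group means. The C48S RA libraries (red) of Nanog lie at 94.4, 95.02 and 93.3 CPM and those of WT (light red) at 16.4, 15.95 and 17.6 CPM, whereas for Klf2 and Tcl1 the RA libraries of the lines lie close together.

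The octamer ATGCAAAT, the POU factor motif, and its first 7 letters were searched in the same promoters on both strands. ATGCAAA was found for 4.2% of all tested genes with a promoter, for 3.77% of those that rose and 5.68% of those that fell at least 4-fold, and ATGCAAAT, which contains it, for 1.64%, 1.39% and 1.75%. Among genes whose RA change was not called the shares were 5.04% and 2.09%. A pair is printed because Nanog fell and Cdx2 rose, and both are textbook genes of Oct4. Each runs 5′ to 3′ along the gene over the 250 bases before the RefSeq start (GRCm38.p6), with the match in capitals. In Nanog (chr6:122707239-122707488, plus strand) ATGCAAA lies on the opposite strand at -75 to -69, and in Cdx2 (chr5:147307250-147307499, minus strand) ATGCAAAT lies on the gene's strand at -147 to -140.
Nanog: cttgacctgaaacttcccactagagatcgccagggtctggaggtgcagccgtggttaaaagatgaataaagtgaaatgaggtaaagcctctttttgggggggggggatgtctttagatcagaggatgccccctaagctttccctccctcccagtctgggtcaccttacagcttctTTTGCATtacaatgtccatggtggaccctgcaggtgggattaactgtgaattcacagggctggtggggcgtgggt
Cdx2: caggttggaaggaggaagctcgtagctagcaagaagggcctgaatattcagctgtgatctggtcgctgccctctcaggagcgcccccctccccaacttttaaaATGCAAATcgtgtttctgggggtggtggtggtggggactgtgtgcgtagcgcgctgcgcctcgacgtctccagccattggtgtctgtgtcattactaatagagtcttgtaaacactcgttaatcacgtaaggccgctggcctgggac

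Hox genes of all clusters rose in C48S, and the 5′ genes of the A cluster rose far more than in WT. Hox genes encode homeobox factors that set position along the body axis, and RA opens the clusters from their 3′ end. All 11 tested Hoxa genes rose (median 5.01, in WT 2.94), as did all 10 Hoxb genes (median 4.89, in WT 4.85) and all 9 Hoxd genes (median 4.16, in WT 3.54). Of 9 Hoxc genes 7 rose and 1, Hoxc12, fell (from 2.55, 3.30 and 4.45 to 1.08, 0.748 and 1.35 CPM, -1.65 ± 0.30). At the 3′ end, Hoxb1 (ENSMUSG00000018973, chromosome 11, 96256578 to 96259082 on GRCm39) had no count in any C48S library before RA and was at 132, 138 and 127 CPM after it, at least 1359-fold higher when the group is set to a floor of 3 counts. The RA libraries of WT were at 129.9, 119 and 136 CPM and overlapped with those of C48S.

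At the 5′ end of the A cluster, Hoxa9 was at 2.12, 2.77 and 1.45 CPM before and 217, 219.9 and 218 CPM after RA (6.69 ± 0.11, edgeR adjusted p = 2.10e-33). In WT it went from 1.32 ± 0.330 to 9.23 ± 0.468 CPM (mean ± SD, n = 3), and the difference between the changes was 3.90 ± 0.32. Hoxa10 rose by 5.63 ± 0.17, Hoxa11 by 5.38 ± 0.36 (6.56 without replicate 3) and Hoxa13 by 5.14 ± 0.43 in C48S, and the differences were 3.55 ± 0.47, 3.54 ± 1.4 and 2.11 ± 0.79. Those of Hoxa11 and Hoxa13 lost their call without one or another single library, at the lowest 2.76 without WT undifferentiated replicate 2 for Hoxa11 and 1.85 without C48S RA replicate 3 for Hoxa13. Toward the 3′ end the same test called Hoxa3 (1.07 ± 0.30) and Hoxa7 (1.27 ± 0.26) and none of Hoxa2, Hoxa4, Hoxa5 and Hoxa6. No member of the B cluster passed that test, from Hoxb2 at -0.95 to Hoxb8 at 1.43 among those with a count before RA in both lines, although both passed without WT undifferentiated replicate 1 (-1.85 and 1.84) and Hoxb2 also without C48S undifferentiated replicate 1 (-1.49). In the D cluster Hoxd4, with 3 counts over the C48S group before RA (2.73 ± 0.82, but 2.43 with an adjusted p of 0.0565 without WT undifferentiated replicate 2) and Hoxd9 (2.34 ± 0.43) rose more in C48S, and Hoxd13, the most 5′ gene, rose less (-2.42 ± 0.41), from 3.22, 2.77 and 2.69 to 6.07, 6.55 and 6.50 CPM in C48S. In the C cluster Hoxc10 rose more (1.47 ± 0.46), a call that also ended without WT undifferentiated replicate 2 (1.30, adjusted p = 0.0782). Of the 9 Hoxc genes tested, 1 other had a change that was called lower in C48S than in WT.

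**Figure D2:**
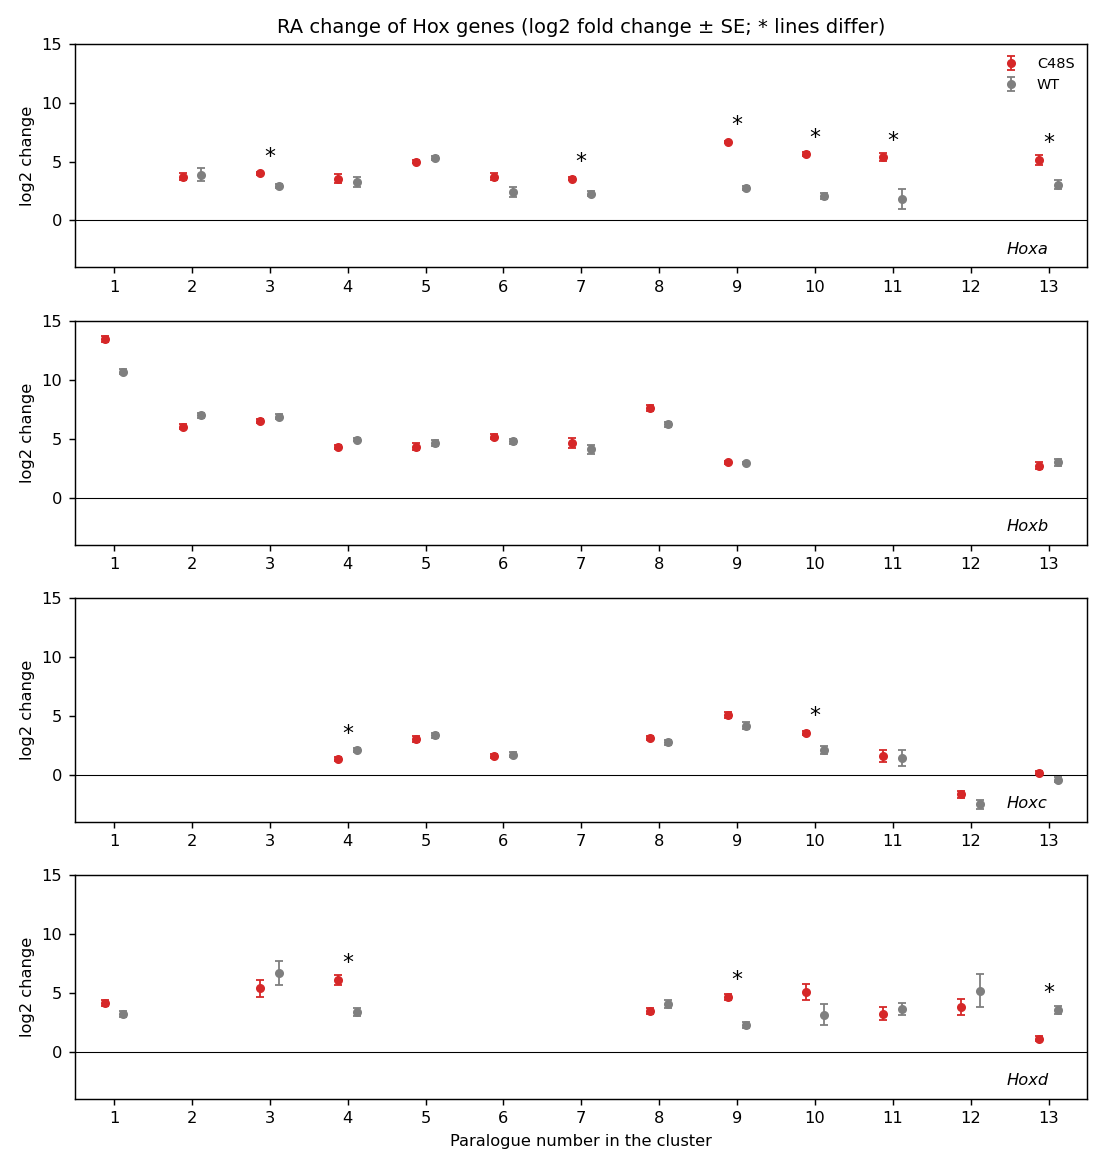
RA change of tested Hox genes as a log2 fold change ± SE, in C48S (red) and WT (grey), by cluster and paralogue number, with a star where the changes differed by the test. In the A cluster the red points stay above 5 from Hoxa9 to Hoxa13 while the grey ones lie near 2 to 3.

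Cdx genes, which activate 5′ Hox genes in the embryo, rose in C48S. Cdx2 (ENSMUSG00000029646, chromosome 5, 147237615 to 147244080 on GRCm39), also the master factor of trophectoderm, went from 0.509, 0.852 and 0.207 to 40.3, 39.2 and 34.9 CPM (6.17 ± 0.22, edgeR adjusted p = 2.42e-23, and 5.83 without replicate 3). In WT it was at 5.70 ± 0.786 CPM before and 2.95 ± 0.962 CPM after RA (mean ± SD, n = 3), a change of -0.93 ± 0.21, and the difference of 7.10 ± 0.33 was the largest positive one among the protein-coding genes that met the rule for naming genes. Cdx1 rose from 42.4, 44.4 and 56.4 to 340.4, 345 and 342 CPM (2.85 ± 0.070, difference 1.29 ± 0.11), and replicate 3 was its highest library before RA. Cdx4 rose by 3.98 ± 0.35. Of the TALE cofactors that bind DNA with Hox proteins, Meis1 rose from 1.53, 1.598 and 1.76 to 91.8, 93.4 and 95.5 CPM (5.84 ± 0.13, in WT 6.56 ± 0.12). Of 12 cofactor and Cdx genes 11 rose and Pknox1 did not pass the test. Their change was higher in C48S for 4 and lower for 4.

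Genes of several lineages rose. In whole cultures, fewer cells of a type and less RNA per cell cannot be told apart, and low levels may come from few cells. Of 15 trophoblast genes 13 rose and 1, Tead4, fell (-2.10 ± 0.087), with a median of 2.92 and a summed level of 169.7 to 173.1 CPM before and 524.2 to 561 CPM after RA. In WT the sum went from 123.4 to 133.8 CPM before to 997.1 to 1024 CPM after RA. Besides Cdx2, Gata3 rose from 1.70, 1.70 and 0.931 to 29.2, 24.7 and 26.9 CPM (4.20 ± 0.17) and Hand1, of trophoblast giant cells and of mesoderm, from 0.170, 0.107 and 0.517 to 6.15, 5.99 and 6.82 CPM (4.55 ± 0.38, and 5.38 without replicate 3), both more than in WT (differences 1.46 ± 0.27 and 3.09 ± 0.53). For the simple epithelial keratins the difference lay the other way. Krt8 rose from 9.67, 13.53 and 11.7 to 91.4, 89.2 and 81.9 CPM in C48S (2.92 ± 0.089) and to 159 ± 4.34 CPM in WT (mean ± SD, n = 3). Its change was lower in C48S (difference -2.95 ± 0.17), as were those of Krt18 and Krt19 (-2.06 ± 0.18 and -1.83 ± 0.27). The levels before RA enter these differences as well as those after it, and for Krt8 the WT level before RA is not given here. Elf5, which defines later trophoblast stem cells, was too low to be tested. Placodal and surface genes such as Dlx3 (6.08 ± 0.14) and Msx1 (6.74 ± 0.17) rose as well.

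Of 17 genes of primitive and visceral endoderm 15 rose and 2, Hnf4a and Sparc, fell (median 1.88). Gata6, the factor that opens this fate, rose from 1.10, 0.320 and 0.207 to 18.7, 14.6 and 14.9 CPM (4.76 ± 0.26). Sox17 rose by 2.64 ± 0.30 and Foxa2, from 1 count over the 3 libraries before RA, by 52.6-fold (exact 95% interval 9.10 to 2112). The basement membrane chains Col4a1, Col4a2 and Lama1 rose by 2.15 ± 0.069, 2.27 ± 0.068 and 1.72 ± 0.081. Ttr and Afp, marks of mature visceral endoderm, had no count in C48S before RA, and Ttr had none after it. Of 10 genes of mesoderm and primitive streak 7 rose. Lhx1, a LIM homeobox factor of early mesoderm, had no count before RA and was at 46.5, 46.2 and 48.3 CPM after it, at least 483-fold higher, and Wnt3 rose from 0.339, 0.107 and 0.207 to 14.3, 17.4 and 13.2 CPM (5.97 ± 0.31). T, the Brachyury factor of the streak, was low in C48S (0.509, 0.107 and 0.620 CPM before and 2.61, 2.43 and 2.54 after RA, 2.56 ± 0.38) and fell in WT (-1.58 ± 0.27), a difference of 4.14 ± 0.46. Mesp1, Msgn1 and Fgf8 were too low to be tested, and Cer1 had no count. 

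Of 15 neuroectoderm genes 9 rose and 4 fell, with a median of only 0.51, and the summed level was 181.9 to 204.2 CPM before and 164.1 to 171.9 CPM after RA. Pax6 rose from 0.0849, 0 and 0.103 to 3.30, 2.34 and 4.20 CPM, or from 2 counts over the group by 51.4-fold (exact 95% interval 13.9 to 429), and Zic1 rose by 3.47 ± 0.28. Tubb3, the neuronal tubulin, fell from 49.98, 49.7 and 68.5 to 6.61, 5.05 and 6.10 CPM (-3.23 ± 0.13), where replicate 3 was the highest library before RA, and Olig2 fell too (-2.21 ± 0.24). Both fell less than in WT (differences 1.56 ± 0.24 and 3.08 ± 0.42). Of 13 crest and placode genes 9 rose and 2 fell. Sox10 rose from 0.764, 0.639 and 0.207 to 9.91, 8.32 and 10.7 CPM (4.11 ± 0.26, in WT 5.81 ± 0.28), and Pax3 by 4.45 ± 0.58.

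**Figure D3:**
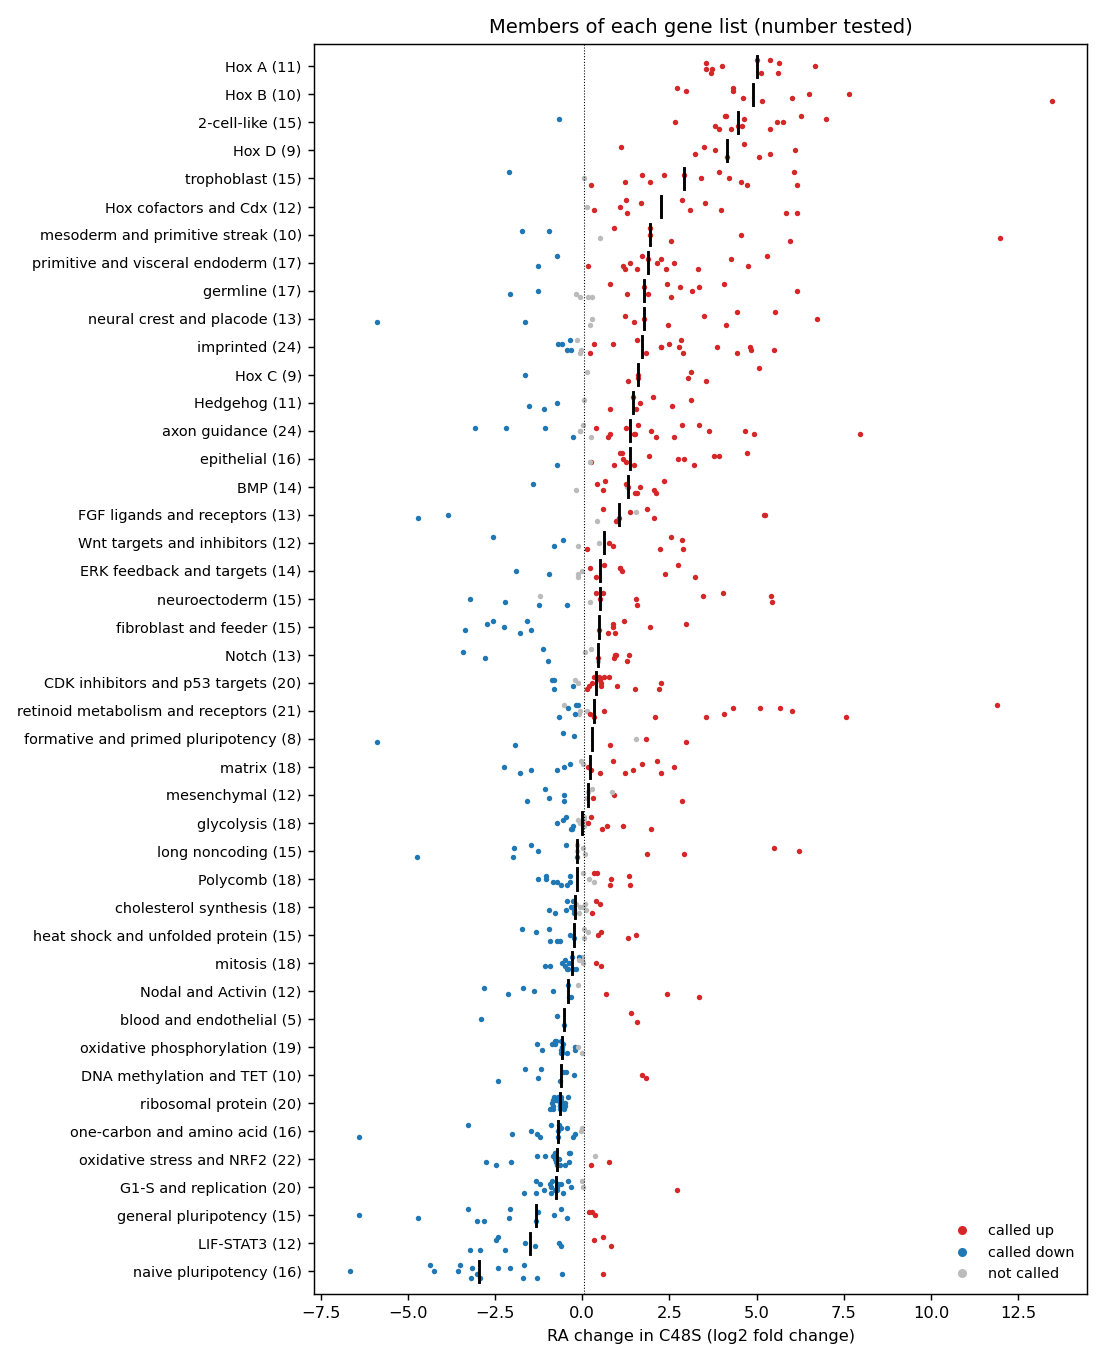
RA change in C48S (log2 fold change) of every tested member of each gene list, with the number tested in brackets, a black bar at the list median and a dotted line at the median of all genes. Hox and 2-cell-like lists lie highest, with medians above 4 except for Hox C, and the naive pluripotency list lowest.

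Genes of the 2-cell-like state, a rare totipotent-like state that passes through stem cell cultures, rose in both lines from very low levels. Of 15 tested 14 rose and 1, Eif1ad, fell, with a median of 4.48, or 4.12 with genes that had no count at their bound. None differed between the lines by the test. Zscan4c went from 0.594, 0.852 and 0.103 to 11.2, 12.3 and 11.97 CPM in C48S (4.48 ± 0.23) and from 2.73 ± 0.279 to 72.9 ± 2.53 CPM in WT (mean ± SD, n = 3). Zscan4, Usp17l and Tcstv genes are near-identical copies whose reads the counting may have split or dropped, so single members are uncertain, and Dux was not analysed here. Germline genes were called mostly up (11 of 17 rose and 2 fell). Stra8, the gene named for its stimulation by RA that opens meiosis, rose from 3.39, 3.30 and 2.90 to 233, 238 and 225 CPM (6.17 ± 0.084), Rec8, the meiotic cohesin, from 22.8, 19.9 and 25.4 to 194, 207 and 202 CPM (3.14 ± 0.064), and Sycp2 by 4.07 ± 0.34. Dazl, which binds RNA in germ cells, was at 5.60, 8.95 and 6.51 CPM before and 7.99, 8.51 and 6.97 CPM after RA in C48S and did not pass the test (adjusted p = 0.256), though it did without C48S undifferentiated replicate 2 (0.35, adjusted p = 0.0316). In WT it fell from 330.2 ± 15.3 to 34.6 ± 1.53 CPM (mean ± SD, n = 3), a difference of 3.43 ± 0.15.

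Of 24 imprinted genes, expressed from one parental copy, 16 rose and 5 fell, and the change was higher in C48S than in WT for 6 and lower for 10. Peg10, a retrotransposon-derived placental gene, rose from 203, 208 and 183 to 5661, 5706 and 5583 CPM (4.83 ± 0.055), less than in WT (difference -1.95 ± 0.070). Mest, Dlk1 and Peg3 rose by 2.49 ± 0.050, 4.82 ± 0.11 and 1.83 ± 0.045, and Snrpn, Phlda2 and Impact fell, with changes of -0.57, -0.68 and -0.44. Meg3, the maternally expressed noncoding RNA of the Dlk1-Dio3 locus, was at 15.6, 18.4 and 16.1 CPM before and 14.6, 15.7 and 14.98 CPM after RA, groups that overlapped, and did not pass the test (adjusted p = 0.236). In WT it rose from 75.6 ± 8.76 to 557 ± 43.6 CPM (mean ± SD, n = 3), a difference of -3.03 ± 0.13, and its neighbour Rian gave the same pattern (-2.95 ± 0.10). H19, named after its values were seen, rose from 9.50, 7.57 and 5.38 to 328, 346 and 352 CPM in C48S (5.49 ± 0.13) and to 6727 ± 342 CPM in WT (mean ± SD, n = 3), a difference of -3.64 ± 0.23. 

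Genes of LIF signalling mostly fell and ERK feedback genes mostly rose. Of 12 genes of the LIF and STAT3 pathway 9 fell (median -1.496). Lifr, its receptor (-2.20), and Socs3, its feedback inhibitor (-2.47), both fell more than in WT (differences -0.80 ± 0.084 and -1.03 ± 0.10), and Stat3 fell too (-0.67). Of 14 ERK feedback and target genes 9 rose and 2 fell. Dusp6, the ERK phosphatase, rose from 19.6, 17.4 and 20.7 to 189.8, 178 and 177 CPM (3.24 ± 0.070) and the immediate early gene Egr1 from 6.28, 5.22 and 6.51 to 32.5, 31.3 and 29.2 CPM (2.36 ± 0.13), less than in WT (difference -2.07 ± 0.25). Spry2, a Sprouty inhibitor, fell from 112, 102 and 90.8 to 53.2, 54.9 and 48.9 CPM (-0.96 ± 0.069) and Etv5, an ETS factor, from 686, 657 and 593 to 175, 171 and 175 CPM (-1.895 ± 0.052). Both fell far more in WT (differences 2.73 ± 0.11 and 2.66 ± 0.079), and both had replicate 3 as the lowest library before RA. Of 5 FGF receptor and coreceptor genes all rose, from Fgfr3 (0.99 ± 0.23) to Klb, which had 2 counts over the group before RA and rose by 44.6-fold (exact 95% interval 12.04 to 373). Of 8 ligands tested 4 rose and 2, Fgf4 and Fgf10 (-3.86 ± 0.15), fell.

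Of 12 Wnt targets and inhibitors 7 rose and 3 fell. Dkk1, a secreted antagonist, rose by 2.88 ± 0.40, and Notum, another, fell (-2.54 ± 0.096). The GSK3 inhibitor of the undifferentiated medium itself raises Wnt targets, and its presence during RA is not stated. Of 12 Nodal and Activin genes 8 fell and 3 rose. Lefty1, the Nodal antagonist, rose from 22.0, 21.9 and 29.7 to 136, 133 and 130.4 CPM in C48S (2.44 ± 0.093), where replicate 3 was the highest library before RA, and fell in WT (-0.51 ± 0.11), a difference of 2.96 ± 0.15. Gdf3 and the coreceptor Tdgf1 fell, with changes of -2.14 and -2.82. Of 14 BMP genes 11 rose, among them the targets Id1 (1.58 ± 0.11), Id2 (2.06 ± 0.087) and Id3 (1.66 ± 0.12) and the inhibitor Smad6 (2.34 ± 0.12). Bmp4 did not pass the test in C48S (adjusted p = 0.266). Notch genes were mixed (6 of 13 rose and 4 fell): Jag1 and Notch4 fell (-2.80 and -3.42), and Notch3 rose by 1.34 ± 0.058. Of 11 Hedgehog genes 7 rose, with Hhip at 3.12 ± 0.12 and Smo at 2.03 ± 0.065, and Gli1 and Gli2 fell (-1.11 and -1.51).

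Among chromatin genes, the de novo methyltransferase Dnmt3a moved in opposite directions in the lines. It rose in C48S from 53.5, 47.0 and 51.4 to 180.0, 182 and 178 CPM (1.83 ± 0.054, edgeR adjusted p = 1.34e-25) and fell in WT from 255 ± 4.18 to 104.3 ± 1.38 CPM (mean ± SD, n = 3), a difference of 3.12 ± 0.074. Of 10 methylation and TET genes 8 fell and 2, Dnmt3a and Tet3 (1.72 ± 0.069), rose. Tet1, a methylcytosine oxidase, fell from 1648, 1605 and 1257 to 283, 262 and 293 CPM (-2.43 ± 0.084), where replicate 3 was the lowest library before RA, and Zfp57, which guards imprints, from 671, 677 and 671 to 219.9, 216 and 213 CPM (-1.64 ± 0.045). Of 18 Polycomb genes 6 rose and 9 fell, most of them by less than 2-fold. Jarid2, which directs the PRC2 complex, rose in C48S (597, 616 and 631 CPM before, 814, 829.6 and 818 after, 0.42 ± 0.042) and fell in WT (-1.59 ± 0.044), a difference of 2.003 ± 0.061, and the core subunits Eed and Suz12 fell (-1.04 and -1.04). Of 15 long noncoding RNAs 4 rose and 7 fell: Hotairm1 and Halr1, which flank the Hoxa cluster, rose by 6.23 ± 0.19 and 2.91 ± 0.089, and Platr10 and the growth-linked Gas5 fell (-4.75 and -1.28).

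Ribosomal and oxidative phosphorylation genes fell by small amounts, and other metabolic lists were less even. All 20 ribosomal protein genes fell (median -0.64, in WT -0.52), and Rps9 had the lowest change (-0.93 ± 0.16). Of 19 oxidative phosphorylation subunits 16 fell and none rose (median -0.59). Both lists had higher medians in replicate 3 than in the other undifferentiated libraries. Without that library the median ribosomal change was -0.575 and that of oxidative phosphorylation -0.53. Of 18 glycolysis genes 6 rose and 6 fell, and 9 rose with upper quartile scaling. The glucose transporter Slc2a1 rose from 329, 318 and 358 to 1299, 1355 and 1281 CPM (1.97 ± 0.048), and Hk2 and Pfkp fell (-0.56 and -0.71), less than in WT (differences 1.11 ± 0.073 and 1.71 ± 0.075). Of 16 genes of one-carbon and amino acid metabolism 14 fell and none rose, led by Tdh, the transporter Slc7a3 (-3.28) and Shmt1 (-2.0). Cholesterol synthesis genes changed little (3 of 18 rose and 9 fell, with 5 and 7 under upper quartile scaling). 

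Redox genes, listed because Oct4 is described as redox-sensitive in the series title, mostly fell. Of 22 oxidative stress and NRF2 genes 19 fell and 2, Txnrd1 (0.26 ± 0.043) and Srxn1 (0.78 ± 0.076), rose. Sod2, the mitochondrial superoxide dismutase, went from 302, 306 and 282 to 44.8, 43.7 and 43.5 CPM (-2.75 ± 0.057) and Gsr, glutathione reductase, from 329, 324 and 317 to 82.8, 79.6 and 74.3 CPM (-2.04 ± 0.051). The peroxidases Gpx1, Prdx1 and Gpx4 fell (-1.29, -0.69 and -0.34), as did Nfe2l2, the NRF2 factor itself (-0.49). The fall of Sod2 did not differ between the lines by the test (adjusted p = 0.280), and that of Gsr was smaller in C48S (difference 0.85 ± 0.077). The median was -0.74 in C48S and -0.83 in WT. Ascorbic acid, an antioxidant, was in the undifferentiated medium, and its part in these falls was not tested.

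Genes of the G1 to S transition and of replication fell (17 of 20, median -0.76), among them Ccnd1, from 279, 276 and 288 to 83.8, 89.8 and 91.8 CPM (-1.67 ± 0.051), Mcm3 (-1.09 ± 0.048) and Pcna (-1.21 ± 0.047). The 1 that rose was Ccnd2, the cyclin of later embryonic cells, from 60.8, 61.4 and 57.0 to 388, 402 and 383 CPM (2.71 ± 0.053, difference from WT 1.44 ± 0.080). Mitotic genes fell by less (12 of 18, median -0.28). Of 20 CDK inhibitors and p53 targets 14 rose and 4 fell: Cdkn1c rose by 2.26 ± 0.13, and Cdkn1a and Trp53 itself fell (-0.80 and -0.87). Of 15 heat shock and unfolded protein genes 4 rose and 8 fell, from Hsph1 (-1.74 ± 0.049) to Hspa1a (1.53 ± 0.16), a gene with a near-identical copy.

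Epithelial genes rose (14 of 16, median 1.36) while Cdh1, E-cadherin, fell (-0.71 ± 0.046) and Cdh2, N-cadherin, rose from 4.75, 5.75 and 5.998 to 39.8, 40.7 and 38.3 CPM (2.86 ± 0.11, difference from WT 1.89 ± 0.15). The tight junction gene Cldn3 rose by 3.79 ± 0.21 and Grhl2, an epithelial factor, by 1.92 ± 0.14, both more than in WT (differences 2.696 ± 0.32 and 2.65 ± 0.20). Of 12 mesenchymal genes 3 rose and 5 fell, Vim among them (-0.95 ± 0.052). Of 18 matrix genes 10 rose and 6 fell. Col18a1, a basement membrane collagen, rose by 2.64 ± 0.050, and the fibrillar collagens Col1a1, Col1a2 and Col3a1 fell (-1.78, -1.47 and -2.23). Those 3 collagens are also fibroblast and feeder markers, of which 8 of 15 tested rose and 7 fell, and none of the 16 was at 0. Their summed level was 703.2 to 864.6 CPM before RA, highest in replicate 3, and 867.9 to 878.8 CPM after it, and its part in the matrix changes was not tested. Of 12 blood and endothelial markers the sum was 127.9 to 148.9 CPM before and 47.63 to 49.33 CPM after RA, and Hbb-bs was at 0 in both groups. Pecam1, which stem cells also express, made up most of that sum before RA but not after it (from 89.2, 88.8 and 75.2 to 10.6, 10.01 and 13.1 CPM, -2.90 ± 0.085). Of 24 axon guidance genes 16 rose and 4 fell, and the change was higher in C48S than in WT for 6 and lower for 10. Sema6a rose from 4.84, 4.79 and 3.41 to 112, 116 and 109.7 CPM (4.68 ± 0.10), far more than in WT (difference 3.74 ± 0.14), and Ntn1 and Robo2 fell (-3.06 and -1.07).

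Among the largest rises outside the lists, Csn3, a casein, had no count before RA and was at 44.3, 48.9 and 43.5 CPM after it (at least 467-fold higher), and 67 genes in all had no count before RA and at least 1 CPM after it. Zfp36l3, a placental RNA binding protein, rose from 0.424, 0.746 and 0.414 to 98.4, 105 and 93.0 CPM (7.54 ± 0.16) and Mmp9, a matrix protease, from 0.509, 0.320 and 0.207 to 54.9, 54.5 and 55.8 CPM (7.23 ± 0.19). Inmt and Sprr1a, with 1 and 2 counts over the group before RA, rose by 666-fold (exact 95% interval 119 to 26357) and 297-fold (exact 95% interval 81.8 to 2455). Among the largest falls Khdc3, of the maternal complex of the egg, fell from 46.6, 45.1 and 58.3 to 0.307, 0.561 and 0.317 CPM (-6.97 ± 0.21), Trpm1, an ion channel, from 61.9, 70.1 and 65.7 to 1.84, 1.59 and 1.51 CPM (-5.31 ± 0.13) and Sod3, the extracellular superoxide dismutase, from 41.7, 34.9 and 47.7 to 2.31, 0.935 and 1.66 CPM (-4.62 ± 0.17). Only 6 genes had at least 1 CPM before RA and no count after it, among them the stem cell RNA Platr9, at 1.87, 0.639 and 1.65 CPM before RA.

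Set against WT, most C48S responses kept their direction and many were smaller. Of the 13203 genes called in C48S, 10772 (81.6%) were called in the same direction in WT (where 78.3% of all genes were called in either direction), 682 (5.17%) in the opposite direction and 1749 (13.2%) not in WT. Among the 10772, the size differed between the lines for 4113 (38.2%), and it was smaller in C48S for 3184 of these (77.4%). The smaller share was 85.2% of 2118 genes that fell in both lines and 69.1% of 1995 that rose in both. Over all genes the change was higher in C48S for 3990 and lower for 3081, a majority that turned under upper quartile scaling (3326 higher and 3783 lower), whereas 3084 smaller and 975 larger responses were then found. The genes with the largest differences included Islr2, a membrane protein of neurons, which rose in C48S from 5.01, 4.69 and 4.65 to 48.4, 54.0 and 48.6 CPM (3.39 ± 0.11) and fell in WT (-0.86 ± 0.18, difference 4.24 ± 0.22), and Ffar3, a fatty acid receptor (4.30 ± 0.25, difference 6.46 ± 0.65). The other way lay Foxd1, a forkhead factor, which fell in C48S from 61.9, 58.3 and 77.1 to 3.996, 3.18 and 4.12 CPM (-4.11 ± 0.13) but went from 2.48 ± 0.696 to 4.14 ± 0.539 CPM in WT (mean ± SD, n = 3, difference -4.83 ± 0.28). Epha1 (1.502 ± 0.096, difference -4.64 ± 0.39), the calcium pump gene Atp2a3 (-2.02 ± 0.077, difference -3.85 ± 0.13) and Crmp1 (-2.67 ± 0.12, difference -3.56 ± 0.18) also had lower changes in C48S. For these 4 the level of C48S before RA exceeded that of WT, for Atp2a3 with 92.5, 95.4 and 92.4 CPM against 8.52 ± 0.866. The levels before RA enter the difference by which these genes were chosen, so this is no separate result.

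**Figure D4:**
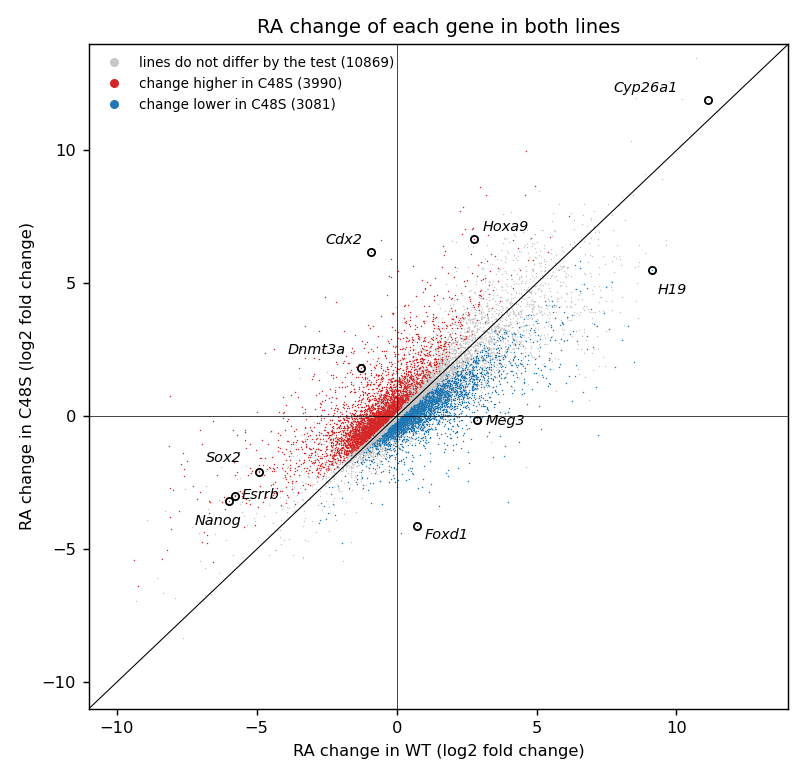
RA change of each of the 17940 genes in WT (x axis) and C48S (y axis), as log2 fold changes, coloured by whether the changes differed by the test, with the diagonal of equal change. Pluripotency genes such as Nanog and Esrrb lie above the diagonal at the lower left, Cdx2 and Hoxa9 above it at the upper side, and Foxd1 and H19 below it.

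Deviations of undifferentiated replicate 3 from replicates 1 and 2 were read for gene lists with at least 5 members at 5 CPM or more in that group. Among these lists the largest log2 deviations were those of ribosomal proteins, 19 of 20 of which were higher in replicate 3 (median 0.317), and oxidative phosphorylation, 17 of 19 (median 0.26). Naive pluripotency factors deviated by a median of 0.0748, with 9 of 16 higher. Among single genes Gm21887 was at 82.7, 75.0 and 4.14 CPM and Gm1821 at 2.46, 3.20 and 27.5 CPM in replicates 1, 2 and 3, and neither passed the test for the RA change. These genes were chosen after their values were seen. Replication-dependent histones took 0.914% and 0.927% of counts in replicates 1 and 2 and 1.15% in replicate 3, and mitochondrial genes 1.68%, 1.93% and 1.48%.

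**Figure D5:**
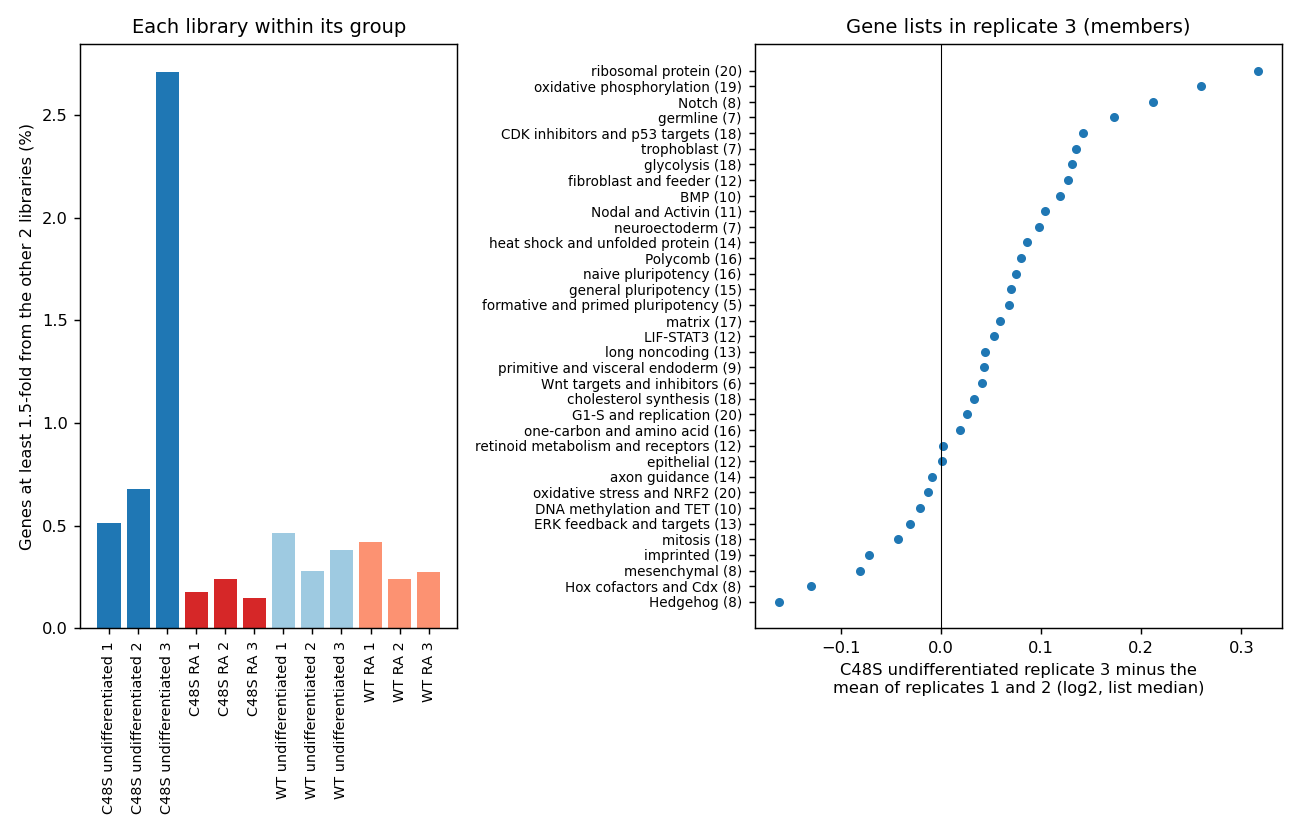
Left, the percent of genes with at least 5 CPM in their group that lie 1.5-fold or more from the mean of the other 2 libraries of the group, for each of the 12 libraries. Right, the median log2 difference of C48S undifferentiated replicate 3 from the mean of replicates 1 and 2, by gene list. Only members with at least 5 CPM in the C48S undifferentiated group enter, with their number in brackets. Lists with fewer than 5 such members are left out. Replicate 3 reaches 2.71%, and the ribosomal list deviates most, at 0.317.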

How the data were processed

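RNA of whole cultures was sequenced in 12 mouse libraries, 3 in each of 4 groups (C48S or WT, undifferentiated or RA at day 2), grouped by their titles. The days in the treatment field went into no test. The authors deposited raw counts of read pairs per gene, made with featureCounts 1.6.3 at strand option 2 on Ensembl 104 (GRCm39), per the file headers. STAR 2.7.9a and DESeq2 are named in the submitters' processing notes, and trimming and duplicate handling are not given in the sources used here. Symbols for 52135 of 55416 genes (94.08%) were taken from GENCODE M21. Coordinates are those of the file headers.

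Libraries held 8678088 to 13597098 counts, and the biological coefficient of variation was 0.0549. Genes were filtered with filterByExpr (minimum count 10), scaled by TMM and tested with the quasi-likelihood test of edgeR 4.0.16 (R 4.3.3, limma 3.58.1) on 4 group means of all 12 libraries, with Benjamini-Hochberg adjustment. A difference between the lines was tested as the interaction of RA and line. DESeq2 1.42.0 was an alternative, beside other scalings and filters, a fold of 1.5 as the null, a replicate block, protein-coding genes alone, the C48S libraries alone and each library left out in turn. The fit was also run on simulated data in which few genes changed. That run could not test the scaling where most genes change, and no result here rests on it. Same-numbered C48S libraries deviated with correlations of -0.0158, -0.0131 and -0.0821, so the numbers were not taken to pair them. Genes without a count were set to 3 counts per group as a floor, and exact 95% intervals cover counting error only.

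The C48S RA response, the 44 gene lists and the alternatives were chosen with earlier results of these data known, and the lists got no test. Genes were named by rule: Pou5f1; the 12 largest rises and falls per contrast among called protein-coding genes of at least 5 CPM without overlap; per list, those of smallest adjusted p and those against the majority, or any member of a list of at most 20; and genes without a count in one C48S group. Promoters came from RefSeq (GRCm38.p6), matched by symbol for 12086 genes. Results for some genes are not reported here.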

Additional observations from a re-analysis of the deposited data

Results flagged for a closer look

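The RA change differed between C48S and WT for 7071 of 17940 genes by the edgeR test of the difference itself, 3990 higher and 3081 lower in C48S. The genes among them whose difference the report gives are listed here with that difference on the log2 scale, C48S minus WT, and every one of them passed that test. Their levels stand in the report.

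The named pluripotency factors lay on the higher side: 1.65 ± 0.12 for Pou5f1, 2.78 ± 0.086 for Esrrb, 1.55 ± 0.12 for Gbx2, 3.81 ± 0.35 for Prdm14, 2.82 ± 0.087 for Sox2, 2.82 ± 0.075 for Nanog, 2.50 ± 0.21 for Nr0b1, 2.14 ± 0.17 for Nr5a2, 1.398 ± 0.063 for Sall4, 1.18 ± 0.088 for Klf4 and 0.97 ± 0.072 for Tfcp2l1. Among retinoid genes the difference was 1.62 ± 0.17 for Fabp5 and 1.54 ± 0.072 for Rarg. Of Hox genes, those of the A cluster differed by 3.90 ± 0.32 (Hoxa9), 3.55 ± 0.47 (Hoxa10), 3.54 ± 1.4 (Hoxa11), 2.11 ± 0.79 (Hoxa13), 1.27 ± 0.26 (Hoxa7) and 1.07 ± 0.30 (Hoxa3). Hoxd4, Hoxd9 and Hoxc10 differed by 2.73 ± 0.82, 2.34 ± 0.43 and 1.47 ± 0.46, and Hoxd13 by -2.42 ± 0.41, the only Hox gene among these on the lower side. A Hoxc gene whose difference is not given here was also called on that side. The values for Hoxa11, Hoxa13, Hoxd4 and Hoxc10 lost their call without one or another single library.

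Of the Cdx genes, Cdx2 differed by 7.10 ± 0.33 and Cdx1 by 1.29 ± 0.11. Among lineage genes T differed by 4.14 ± 0.46, Hand1 by 3.09 ± 0.53, Olig2 by 3.08 ± 0.42, Tubb3 by 1.56 ± 0.24 and Gata3 by 1.46 ± 0.27, and the keratins Krt8, Krt18 and Krt19 by -2.95 ± 0.17, -2.06 ± 0.18 and -1.83 ± 0.27. The germ cell gene Dazl stood at 3.43 ± 0.15. The imprinted genes whose difference is given lay on the lower side, with H19 at -3.64 ± 0.23, Meg3 at -3.03 ± 0.13, Rian at -2.95 ± 0.10 and Peg10 at -1.95 ± 0.070. Of all 24 imprinted genes tested 10 lay on the lower and 6 on the higher side.

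In signalling, Lefty1 differed by 2.96 ± 0.15, Spry2 by 2.73 ± 0.11 and Etv5 by 2.66 ± 0.079, against -2.07 ± 0.25 for Egr1, -1.03 ± 0.10 for Socs3 and -0.80 ± 0.084 for Lifr. The chromatin genes Dnmt3a and Jarid2 differed by 3.12 ± 0.074 and 2.003 ± 0.061, and both rose in C48S and fell in WT. In metabolism, redox and the cell cycle the difference was 1.71 ± 0.075 for Pfkp, 1.11 ± 0.073 for Hk2, 0.85 ± 0.077 for Gsr and 1.44 ± 0.080 for Ccnd2. Adhesion and guidance genes gave 2.696 ± 0.32 for Cldn3, 2.65 ± 0.20 for Grhl2, 1.89 ± 0.15 for Cdh2 and 3.74 ± 0.14 for Sema6a. Among the largest differences outside the lists were Ffar3 (6.46 ± 0.65) and Islr2 (4.24 ± 0.22) on the higher side and Foxd1 (-4.83 ± 0.28), Epha1 (-4.64 ± 0.39), Atp2a3 (-3.85 ± 0.13) and Crmp1 (-3.56 ± 0.18) on the lower side.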

How the results depend on the processing

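With a fold of 1.5 as the null in place of no change, edgeR called 7032 genes in C48S (4522 rises and 2510 falls) and 9060 in WT, of which 5631 moved the same way in both lines and 102 in opposite ways. The changes then differed between the lines for 2257 genes (1366 higher and 891 lower in C48S), with 568 smaller and 140 larger responses among genes that moved the same way. Under the other alternatives each of these counts stayed within 1.5 times its value. The C48S count ran from 12130 of 16444 genes tested (the C48S libraries alone) to 13939 of 34509 (no low-count filter). With each library left out in turn it ran from 12706 of 18471 to 13381 of 18526. Since the settings tested different numbers of genes, like counts can be unlike shares. The count of differences between the lines ran from 6420 to 7771 with a library left out, highest without C48S undifferentiated replicate 3, and was 6124 with DESeq2. With the replicate block 13092 genes were called in C48S (6924 rises and 6168 falls) and 6938 differed between the lines. The block is no pairing by origin, since same-numbered libraries did not deviate together.

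For the genes named in the text, 240 results gave 4957 values under the alternatives, of which 4897 kept direction and call, 47 lost the call (20 of them under the fold of 1.5), 6 gained it and 7 turned sign. The 7 were differences between the lines that had not passed the test: Cyp26a1 without WT undifferentiated replicate 1 (-0.15, the lowest of a range up to 1.38 over single libraries left out), Dppa5a without C48S undifferentiated replicate 3 (0.16) and without WT RA replicate 2 (0.0052; range from -0.12), and Tcl1 without C48S undifferentiated replicate 3 (0.014), WT RA replicate 2 (0.062), WT RA replicate 3 (0.15) or C48S RA replicate 3 (0.40; range from -0.47). The cause was not tested. Of 2772 list counts and medians 116 moved, 30 of them under the fold of 1.5. Without replicate 3 glycolysis had 8 rises and 6 falls, and with upper quartile scaling mitotic genes had 4 rises and 10 falls.

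The labels do not tell separate cultures from repeat libraries, the C48S line is 1 clone, and RA was given as LIF was withdrawn. The fold of a gene with a few counts before RA, such as Cyp26a1, rests on those few counts, and that of a gene with none, such as Hoxb1, is only a lower bound. Reads of near-identical gene copies cannot be assigned with certainty.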
